A study of Mus musculus with 10 samples.

Results

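Germline and meiosis genes were followed across mouse embryonic stem cell (ESC) cultures that differ in DIDO3, the longest protein made from the Dido1 gene. The 10 genes were Dazl, Sycp1, Sycp3, Stra8, Mael, Taf7l, Hormad1, Slc25a31, Stk31 and Tex101, of 19373 genes with a symbol. They were chosen by name and located with the mm10 gene annotation, and their 24 features fell on 14 sites, a site being 1 or more features with identical coordinates whose values were added up. All cells were of the C57BL/6 strain by their labels and were grown with serum and leukemia inhibitory factor on mitomycin C-treated mouse embryonic fibroblasts or on gelatin. The WT group was wild type. The DIDO3ΔE16 group lacked exon16, which only DIDO3 uses, after a floxed exon was removed by Cre under the Sox2 promoter in the mice behind the line. The DIDO3ΔCT+HADIDO3 group carried the earlier C-terminal deletion of DIDO3 and expressed HA-tagged DIDO3, so it combines a mutation with a transgene and is not a corrected form of DIDO3ΔE16. Each group had 3 libraries. The labels list 4 WT samples, of which replicates 2 and 3 name 1 library, called replicate 2-3 here. Nothing states that libraries of a group came from separate derivations of the line, so the spread between them may be technical.

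Germline genes are held silent or low in most somatic tissues, where DNA methylation and repressive complexes act on their promoters. In ESC and the early embryo a group of them is held down by PRC1.6, a Polycomb complex that contains the E-box binding pair MGA and MAX, and E2F6 with its partner DP1. In the gonads they serve entry into meiosis, pairing of homologous chromosomes along the synaptonemal complex, and silencing of transposons by piRNA.

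The canonical E-box CACGTG was searched in the promoters of the 10 genes, 250 bases before to 50 bases after each RefSeq start site (GRCm38.p6). The motif reads the same on both strands. It was present in 7 of the 10 genes and in 7.15% of 32851 mouse promoters of the same length. The shorter E2F-type motif GCGGGA, or TCCCGC on the other strand, was present in 5 of the 10 genes, all of which also held the E-box, and in 20.0% of all promoters. A gene was counted if any of its promoters held the motif, and Hormad1 and Stk31 have 2 promoters each. The percentages count single promoters, so they differ in unit from the counts of genes. The windows below show the E-box nearest to each start site in the 7 genes, 5′ to 3′ on the strand of the gene, with the motif in capitals.
Sycp1, chr3:102936177-102936206, reverse strand, 94 bases before the start: tagagaacccggCACGTGggaagggaaatc
Sycp3, chr10:88459532-88459561, forward strand, 43 bases before the start: acgggcatggagCACGTGctaggaggcggg
Mael, chr1:166238950-166238979, reverse strand, 223 bases before the start: taccaggcctacCACGTGacaatccccgcc
Taf7l, chrX:134476522-134476551, reverse strand, 49 bases before the start: accctcttatacCACGTGacagaactcgcc
Hormad1, chr3:95559645-95559674, forward strand, 20 bases before the start: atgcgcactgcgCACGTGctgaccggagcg
Slc25a31, chr3:40708766-40708795, forward strand, 93 bases before the start: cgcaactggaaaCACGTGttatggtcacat
Stk31, chr6:49395472-49395501, forward strand, 55 bases before the start: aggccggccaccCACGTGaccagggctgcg

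Hormad1 and Sycp3 each held a pair of E-boxes. In Sycp3 an E2F-type match lay upstream of both, 147 bases before its start site. Hormad1 also held an E2F-type match upstream of both, 95 bases before its start site (chr3:95559570-95559599, gcgcagcttttgGCGGGAatagtggtctgg). No match was found in this window for Dazl, Stra8 or Tex101. These are matches of letters, and binding of any factor was not measured.

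**Figure D1:**
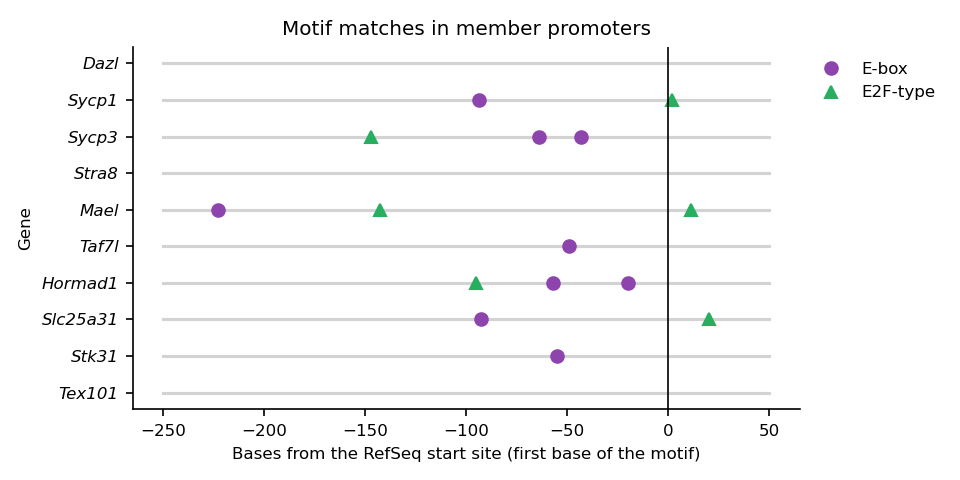
Position of E-box (circles) and E2F-type (triangles) matches in the promoters of the 10 genes, with the horizontal axis in bases from the RefSeq start site. The E-box is in 7 genes, all upstream of the start, and Dazl, Stra8 and Tex101 hold neither motif.

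Expression was read at 3′ ends. A feature was the 3′UTR of a UCSC transcript plus 2 kb of downstream sequence, and its value is given in TPM, a share of the library per unit of length. The aligned bases in features came to 1.46 to 2.61 Gb per library. The Dido1 site used by DIDO3 alone had 13.7 to 17.9 TPM in WT cells, 0.307 to 0.546 in DIDO3ΔE16 cells and 10.9 to 12.1 in DIDO3ΔCT+HADIDO3. All 13 pluripotency markers had a mean of at least 1 TPM in every group, but some were uneven between libraries. In WT replicates 1, 2-3 and 4, Nanog had 664, 676 and 3.10 TPM and Esrrb 5.18, 1155 and 8.78. The 11 fibroblast markers summed to 66.9 to 73.5 TPM in WT cells, 141 to 148 in DIDO3ΔE16 cells and 99.4 to 107 in DIDO3ΔCT+HADIDO3. In that line Thy1 (54.4 TPM) and Pdgfrb (39.6 TPM) made up most of the sum and were called higher than in WT, whereas Col1a1, Col1a2, S100a4 and Fbn1 were called lower, Col3a1 was at 0 and Col1a2 at 0.229 to 0.246. The 6 markers of two-cell-like cells summed to 13.4 to 16.5 TPM in WT cells, 75.7 to 96.9 in DIDO3ΔE16 cells and 48.4 to 54.1 in DIDO3ΔCT+HADIDO3. The Y-linked genes Ddx3y, Eif2s3y, Kdm5d and Uty were all at 0 in the 3 DIDO3ΔCT+HADIDO3 libraries and summed to 21.1 TPM or more in each of the other libraries, so the lines also differ in their sex chromosomes. Between lines, the genotype cannot be told apart from these differences, and their part in the results below was not tested. WT replicates 1 and 4 ran on flow cells with another name prefix than the remaining 7 libraries, which include WT replicate 2-3. This prefix, called flow cell family, was entered as a covariate, and calls that it changed are given below. No mutant library shares the prefix of WT replicates 1 and 4. The WT level in that fit therefore rests on WT replicate 2-3 alone, so calls lost or gained with it compare the mutants with 1 WT library.

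Of the 10 genes, 9 had reads in every library and entered the test. Groups were compared on log2(TPM + 0.1) after scaling with limma, with Benjamini-Hochberg adjustment over all sites tested, and calls required a log2 fold change of 0.7 or more in either direction with adjusted p under 0.05. In DIDO3ΔE16 compared with WT, 1 of the 9 genes (Slc25a31) was called higher at its most abundant site and 0 lower (limma; at an unadjusted p under 0.05, 3 higher and 0 lower), while 10.2% of all 21063 sites were called higher and 4.94% lower. In DIDO3ΔCT+HADIDO3 compared with WT, 4 genes were called higher (Dazl, Mael, Slc25a31 and Tex101) and 1 lower (Sycp1), beside 10.1% and 7.24% of 20879 sites. In DIDO3ΔE16 compared directly with DIDO3ΔCT+HADIDO3, 3 genes were called higher (Sycp1, Stra8 and Hormad1) and 2 lower (Mael and Tex101), beside 13.9% and 13.4% of 21172 sites. The median log2 fold change of the 9 genes was 0.35, 0.29 and -0.05 in these comparisons, and that of all sites was -0.01, -0.01 and 0.01. Both comparisons with WT use the same 3 WT libraries. Most sites consist mainly of the added downstream sequence, so levels are compared between groups and not between genes. The paper reports read-through past 3′ ends in DIDO3ΔE16 ESC. Reads in 3′UTR and in downstream sequence were not separated, so a difference at a site need not be one of mRNA level.

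**Figure D2:**
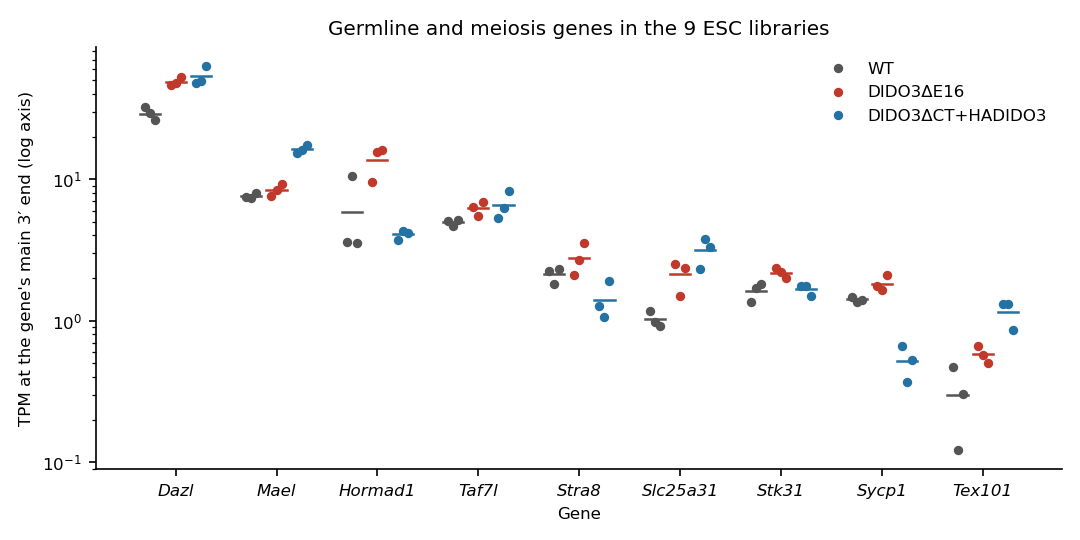
TPM of the 9 genes with reads at their most abundant 3′ end, on a log axis, with 1 point per library and a bar at the mean of each group of 3 libraries. Sycp1 and Mael separate DIDO3ΔCT+HADIDO3 from both other groups in opposite directions, and Hormad1 shows 1 WT library at 10.5 TPM beside 3.601 and 3.52.

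**Figure D3:**
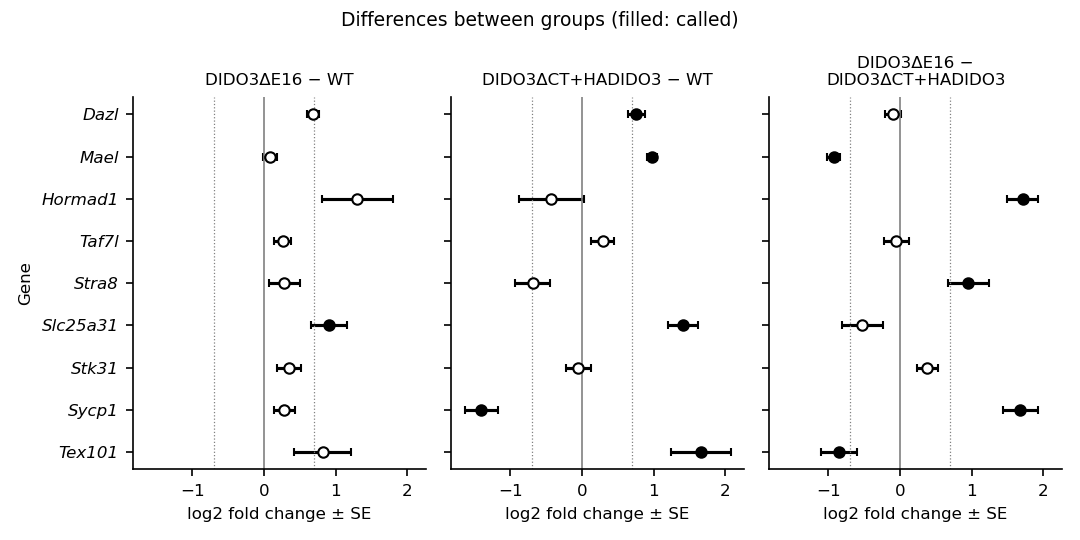
Log2 fold changes with standard errors for the same 9 genes in the 3 comparisons, each the first group minus the second. Filled points are called, and dotted lines mark the fold threshold. In DIDO3ΔE16 against WT 1 point is filled, and in each of the other comparisons 5 are.

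Dazl and Stra8 act at the entry into meiosis. Dazl, an RNA-binding protein that licenses germ cells for gametogenesis, was the most abundant of the 10 genes and was higher than in WT in both mutant lines. It has 2 separate ends on the reverse strand of chromosome 17. The distal end (chr17:50277393-50281248, 1856 of its 3856 bases 3′UTR) had 32.1, 29.2 and 26.0 TPM in the WT libraries, 46.4, 47.5 and 52.6 in DIDO3ΔE16 cells, and 47.7, 49.0 and 62.8 in DIDO3ΔCT+HADIDO3. All 6 mutant libraries were above all 3 of WT. The log2 fold change was 0.68 (SE 0.08) in DIDO3ΔE16, with an adjusted p of 0.00348 (limma) but a size just under the fold threshold, and 0.76 (SE 0.12, adjusted p = 0.00693) in DIDO3ΔCT+HADIDO3. Both values lie close to the threshold, so single libraries moved the call. In DIDO3ΔE16 the site was called without WT replicate 1 (0.75), without DIDO3ΔE16 replicate 1 (0.71) or without its replicate 2 (0.70), and also with a mean of at least 1 TPM (0.72), without scaling (0.75), with quantile normalization (0.76) and with features not summed (1.07, adjusted p = 0.0354). In DIDO3ΔCT+HADIDO3 it was not called without WT replicate 4 (0.69) or without DIDO3ΔCT+HADIDO3 replicate 3 (0.65), with flow cell family as a covariate (0.75, adjusted p = 0.0585), or when its 3 features were not summed (0.96, adjusted p = 0.109).

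The proximal Dazl end (chr17:50283669-50286103, 435 of 2435 bases 3′UTR) shares no base with the distal end and held lower TPM. Its libraries had 7.16, 8.41 and 9.46 TPM in WT cells, 15.03, 15.3 and 14.5 in DIDO3ΔE16 cells, and 13.6, 16.4 and 16.2 in DIDO3ΔCT+HADIDO3. The groups were again apart from WT, and the site was called higher in both lines, by 0.78 (SE 0.13, adjusted p = 0.00822, limma) and 0.78 (SE 0.14, adjusted p = 0.00972). Without WT replicate 1 both dropped just under the fold threshold, to 0.66 each, and with the flow cell family as a covariate the adjusted p was 0.0711 and 0.0752. The mutant lines did not differ by the test at either end, with log2 differences of -0.095 (SE 0.11) and -0.02 (SE 0.08). The 2 ends were measured in the same libraries and are not independent replicates.

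Stra8, which germ cells need to start the meiotic programme in response to retinoic acid, was read at chr6:34939171-34941342, where 172 of 2172 bases are 3′UTR. Its TPM was 2.24, 1.82 and 2.30 in WT cells, 2.10, 2.69 and 3.52 in DIDO3ΔE16 cells, and 1.27, 1.05 and 1.90 in DIDO3ΔCT+HADIDO3. WT overlapped both mutants, and neither comparison with WT was called (0.29, SE 0.22, adjusted p = 0.379, and -0.69, SE 0.24, adjusted p = 0.0778, limma). The mutants did not overlap, and Stra8 was called 0.95 higher in DIDO3ΔE16 than in DIDO3ΔCT+HADIDO3 (SE 0.28, adjusted p = 0.0392). That call was lost without DIDO3ΔE16 replicate 2 (adjusted p = 0.0948) or 3 (0.103) and without DIDO3ΔCT+HADIDO3 replicate 1 (0.103) or 2 (0.103), with quantile normalization (0.0593), with features not summed (0.109), and with a pseudocount of 1, where the difference was 0.66. Stra8 was called lower in DIDO3ΔCT+HADIDO3 than in WT without DIDO3ΔCT+HADIDO3 replicate 3 (-0.89, adjusted p = 0.0347) and with quantile normalization (-0.85, adjusted p = 0.0436).

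Sycp1, Sycp3 and Hormad1 build the chromosome axis and the synaptonemal complex. Sycp1, which forms the transverse filaments between paired homologs, was lower in DIDO3ΔCT+HADIDO3 than in both other groups. At chr3:102816499-102818824 (326 of 2326 bases 3′UTR) it had 1.46, 1.36 and 1.41 TPM in WT cells, 1.75, 1.65 and 2.09 in DIDO3ΔE16 cells, and 0.667, 0.369 and 0.523 in DIDO3ΔCT+HADIDO3. The 3 groups did not overlap, and the SD of the WT libraries was 0.0511 TPM. The log2 fold change against WT was -1.41 in DIDO3ΔCT+HADIDO3 (SE 0.23, adjusted p = 0.00737, limma) and 0.29 in DIDO3ΔE16 (SE 0.15, adjusted p = 0.202). DIDO3ΔE16 exceeded DIDO3ΔCT+HADIDO3 by 1.68 (SE 0.24, adjusted p = 0.00326), and this call held without any 1 of the 6 libraries. The call against WT also held without each library but not with the flow cell family as a covariate (-1.36, adjusted p = 0.0603). The site held 549 to 3086 aligned bases per library, or 0.236 to 1.33 reads per base.

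Sycp3, a core protein of the chromosome axis, was listed at 0 in all 9 libraries at both of its sites (chr10:88472959-88475236 and chr10:88472817-88475236) and was not tested. The smaller site lies wholly inside the larger. Both are covered from the opposite strand by a feature of Chpt1, a choline phosphotransferase, with 20.9 ± 2.46 TPM (SD, n = 3) in WT cells, 18.8 ± 0.612 in DIDO3ΔE16 cells and 23.4 ± 5.36 in DIDO3ΔCT+HADIDO3. A value of 0 at these sites says only that the estimate gave Sycp3 no reads there, and it is not evidence that the gene was silent.

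Hormad1, which marks unsynapsed chromosome axes, was higher in DIDO3ΔE16 than in DIDO3ΔCT+HADIDO3, but its comparison with WT depended on 1 library and on the fit. Its long end (chr3:95585559-95589860, 2302 of 4302 bases 3′UTR) had 3.601, 10.5 and 3.52 TPM in WT replicates 1, 2-3 and 4, 9.61, 15.5 and 15.98 in DIDO3ΔE16 cells, and 3.74, 4.32 and 4.15 in DIDO3ΔCT+HADIDO3. WT replicate 2-3 stood apart from the other WT libraries and lay above DIDO3ΔE16 replicate 1. It is also the WT library from the flow cells of the mutants. The log2 fold change of DIDO3ΔE16 against WT was 1.3 (SE 0.50, adjusted p = 0.109, limma) and 1.81 without that library (adjusted p = 0.0124). With all libraries kept it was called in 1 fit of all 9 libraries (1.31, adjusted p = 0.048) and with TPM summed over the gene (1.15, adjusted p = 0.0485). For DIDO3ΔCT+HADIDO3 against WT it was -0.43 (SE 0.46, adjusted p = 0.513, limma) and 0.08 without WT replicate 2-3 (adjusted p = 0.602). With flow cell family as a covariate, where the WT level rests on WT replicate 2-3 alone, this difference was -1.45. The difference of DIDO3ΔE16 from WT in that fit was 0.28. DIDO3ΔE16 exceeded DIDO3ΔCT+HADIDO3 by 1.71 (SE 0.21, adjusted p = 0.0019), without any WT library in the fit and without exception when each library was left out.

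The other Hormad1 sites lie inside the long one and share its bases. The proximal end (chr3:95585559-95587798, 240 of 2240 bases 3′UTR) had 1.75, 0.932 and 1.29 TPM in WT cells, 2.98, 2.58 and 3.18 in DIDO3ΔE16 cells, and 1.41, 1.81 and 1.67 in DIDO3ΔCT+HADIDO3. Here WT replicate 2-3 was the lowest of the WT libraries, and DIDO3ΔE16 did not overlap either group. It was called higher than WT by 1.06 (SE 0.25, adjusted p = 0.0264, limma) and higher than DIDO3ΔCT+HADIDO3 by 0.82 (SE 0.15, adjusted p = 0.00804). The first call was lost without WT replicate 4 (adjusted p = 0.0675) or without DIDO3ΔE16 replicate 1 (0.078), 2 (0.0584) or 3 (0.0821), and with quantile normalization (0.78, adjusted p = 0.0634). With a pseudocount of 1 the difference between the mutant lines was 0.59 and was not called. The distal part (chr3:95587459-95589860) held 0.140 to 0.847 TPM and was not called in any comparison.

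**Figure D4:**
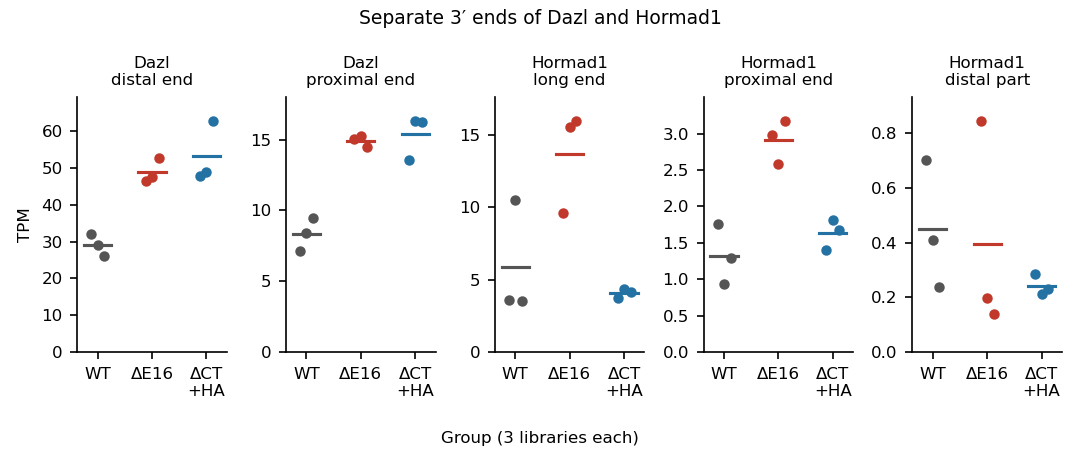
TPM at the separate 3′ ends of Dazl and at the overlapping sites of Hormad1, with 1 point per library, a bar at each group mean and its own linear axis from 0 in each panel. Both Dazl ends are higher in all mutant libraries than in WT, whereas the long Hormad1 end has 1 WT library at 10.5 TPM.

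Mael and Stk31 belong to the piRNA pathway. Mael, a nuage protein needed to silence transposons in the male germline, was higher in DIDO3ΔCT+HADIDO3 and close to WT in DIDO3ΔE16. At chr1:166199385-166201547 it had 7.44, 7.41 and 7.95 TPM in WT cells, 7.59, 8.43 and 9.25 in DIDO3ΔE16 cells, and 15.3, 15.99 and 17.4 in DIDO3ΔCT+HADIDO3. The mean in DIDO3ΔCT+HADIDO3, 16.2 ± 1.03 TPM (SD, n = 3), was 2.14 times that in WT, and no library of that group overlapped the others. The log2 fold change was 0.98 against WT (SE 0.07, adjusted p = 0.000604, limma), and DIDO3ΔE16 differed from DIDO3ΔCT+HADIDO3 by -0.92 (SE 0.09, adjusted p = 0.000749). Both calls held without each library. DIDO3ΔE16 differed from WT by 0.08 (SE 0.10, adjusted p = 0.57). Only 163 of the 2163 bases of this site are 3′UTR, and no other site shares them.

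Stk31, a Tudor domain kinase of germ cells, was read at chr6:49469353-49471502. Its TPM was 1.36, 1.70 and 1.81 in WT cells, 2.34, 2.20 and 2.00 in DIDO3ΔE16 cells, and 1.77, 1.76 and 1.498 in DIDO3ΔCT+HADIDO3. The DIDO3ΔE16 libraries lay above all others, but no comparison was called (0.35, SE 0.17, adjusted p = 0.183 against WT, 0.38, SE 0.15, adjusted p = 0.0858 against DIDO3ΔCT+HADIDO3, limma). DIDO3ΔCT+HADIDO3 differed from WT by -0.05 (SE 0.18), a sign that turned without scaling (0.05).

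Slc25a31, Tex101 and Taf7l are best known from spermatogenesis. Slc25a31, the ADP/ATP carrier of the testis, was higher than in WT in both mutant lines. At chr3:40725069-40728094 (1026 of 3026 bases 3′UTR) it had 1.17, 0.974 and 0.915 TPM in WT cells, 2.53, 1.49 and 2.37 in DIDO3ΔE16 cells, and 2.32, 3.76 and 3.31 in DIDO3ΔCT+HADIDO3. WT did not overlap either mutant group, while the mutants overlapped each other. The log2 fold change was 0.91 in DIDO3ΔE16 (SE 0.25, adjusted p = 0.0428, limma) and 1.41 in DIDO3ΔCT+HADIDO3 (SE 0.21, adjusted p = 0.00579). The call in DIDO3ΔCT+HADIDO3 held without each library. That in DIDO3ΔE16 was lost without any 1 of the libraries except DIDO3ΔE16 replicate 2: the adjusted p was 0.0747, 0.108 and 0.111 without WT replicates 1, 2-3 and 4, and 0.114 and 0.121 without DIDO3ΔE16 replicates 1 and 3. With flow cell family as a covariate it was 0.172, with quantile normalization 0.161, and with features not summed 0.0578. With a pseudocount of 1 the log2 fold change was 0.58 and was not called. The mutants differed by -0.52 (SE 0.28, adjusted p = 0.186).

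Tex101, a surface protein of spermatocytes and sperm precursors, was low throughout and highest in DIDO3ΔCT+HADIDO3. At chr7:24666012-24668172 (161 of 2161 bases 3′UTR) it had 0.472, 0.122 and 0.301 TPM in WT cells, 0.667, 0.574 and 0.501 in DIDO3ΔE16 cells, and 1.31, 1.303 and 0.852 in DIDO3ΔCT+HADIDO3. The groups did not overlap, but the site rests on 152 to 1908 aligned bases per library. Tex101 was called higher in DIDO3ΔCT+HADIDO3 than in WT by 1.65 (SE 0.42, adjusted p = 0.0303, limma) and DIDO3ΔE16 differed from it by -0.85 (SE 0.25, adjusted p = 0.0363). DIDO3ΔE16 against WT was not called (0.82, SE 0.40, adjusted p = 0.18). The first call was lost without WT replicate 4 (adjusted p = 0.0683) or DIDO3ΔCT+HADIDO3 replicate 1 (0.0899) or 2 (0.0902). The second was lost without DIDO3ΔE16 replicate 1 (0.0548), 2 (0.0896) or 3 (0.0987) and without DIDO3ΔCT+HADIDO3 replicate 1 (0.102) or 2 (0.104). With a pseudocount of 1 the differences were 0.70 and -0.43, and neither was called. The second was also lost in 1 fit of all 9 libraries (adjusted p = 0.102).

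Taf7l, a testis form of a TFIID subunit on the X chromosome, was read at chrX:134458116-134460620. Its TPM was 5.04, 4.66 and 5.14 in WT cells, 6.31, 5.47 and 6.94 in DIDO3ΔE16 cells, and 5.33, 6.29 and 8.23 in DIDO3ΔCT+HADIDO3. All mutant libraries lay above WT, but neither difference was called (0.26, SE 0.12, adjusted p = 0.157, and 0.29, SE 0.16, adjusted p = 0.227, limma). Of the 2505 bases of this site, 458 are shared with Drp2 on the opposite strand, which had 1.096 to 1.595 TPM on average per group.

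Wider lists of genes from the same processes moved in both directions. Each gene was read at its most abundant site, and lists contain the members that belong to them. Genes at 0 in any library of a comparison were not tested there, and the counts leave them out even where another group had reads. Counts are set beside the share of all sites called in the same direction, and no list was tested as a group. Among the genes of the synaptonemal complex and chromosome axis, 2 of 11 tested were called higher and 1 lower in DIDO3ΔE16 than in WT (median log2 fold change 0.06), beside 10.2% and 4.94% of all sites. In DIDO3ΔCT+HADIDO3 5 of 11 were called higher and 1 lower (median 0.24), beside 10.1% and 7.24% of all sites. Syce1, a central element protein, had 21.1 ± 10.7 TPM (SD, n = 3) in WT cells, 115 ± 10.1 in DIDO3ΔE16 cells and 77.8 ± 0.308 in DIDO3ΔCT+HADIDO3, and was called higher in both lines (2.48, SE 0.36, and 1.88, SE 0.35). Its site overlaps Cyp2e1 on the opposite strand, and the estimates used no strand option, so reads of the pair cannot be told apart. The same holds for Smc1b with Fam118a. Tex12 and Syce3, also central element proteins, were called higher in DIDO3ΔCT+HADIDO3 (1.71 and 1.11), where Tex12 lost the call without DIDO3ΔCT+HADIDO3 replicate 2 (adjusted p = 0.051, limma) or with flow cell family as a covariate (0.0884). Tex12 was also called higher in DIDO3ΔE16 (0.81, adjusted p = 0.0451, limma). Six6os1, a further central element protein, was called lower in DIDO3ΔE16 than in WT (-1.26, SE 0.11) and than in DIDO3ΔCT+HADIDO3 (-0.94, SE 0.10). Only 2 bases of the Six6os1 site are 3′UTR. The meiotic cohesin subunits Smc1b and Stag3 were highest in DIDO3ΔCT+HADIDO3, at 6.32 ± 0.903 and 50.6 ± 2.40 TPM against 2.93 ± 0.399 and 28.7 ± 4.64 in WT, and DIDO3ΔE16 was below that line by -1.5 and -0.87.

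In meiotic recombination, 2 of 22 genes were called higher and 3 lower in DIDO3ΔE16, and 3 of 22 higher and 2 lower in DIDO3ΔCT+HADIDO3, with medians of -0.14 and -0.13. The shares of all sites were 10.2% and 4.94%, and 10.1% and 7.24%, so the counts of higher calls were near the background. Some genes of this list were uneven between WT libraries, such as Psmc3ip at 3.17, 66.7 and 50.5 TPM and Mlh3 at 35.3, 6.68 and 10.4. A missing call says little about such genes. Prdm9, the methyltransferase that places recombination hotspots, had 1.35 ± 0.614 TPM (SD, n = 3) in WT cells, 7.51 ± 1.61 in DIDO3ΔE16 cells and 1.32 ± 0.273 in DIDO3ΔCT+HADIDO3. It was called higher in DIDO3ΔE16 than in WT (2.41, SE 0.40) and than in DIDO3ΔCT+HADIDO3 (2.44, SE 0.24). Only 2 bases of the Prdm9 site are 3′UTR, so the site is almost wholly added downstream sequence. Ccnb1ip1, a crossover factor also known as HEI10, was called higher in DIDO3ΔCT+HADIDO3, with 32.2 ± 2.53 TPM against 4.07 ± 0.653 in WT (2.86, SE 0.13) and 3.77 ± 0.0959 in DIDO3ΔE16. Msh5, a partner of Msh4, was called higher in that line too (1.44, SE 0.17). Meiob was called lower in DIDO3ΔE16 than in DIDO3ΔCT+HADIDO3 (-2.47, SE 0.32). It had 0.173 ± 0.156 TPM in WT cells, 0.295 ± 0.118 in DIDO3ΔE16 cells and 2.09 ± 0.532 in DIDO3ΔCT+HADIDO3. Meiob was not tested against WT, where replicate 2-3 was at 0. The strand exchange recombinase Dmc1 and Tex15, a protein needed for repair of meiotic breaks, were called lower in DIDO3ΔCT+HADIDO3 than in WT (-1.65, SE 0.07, and -1.28, SE 0.20). The Dmc1 call was lost in 1 fit of all 9 libraries (adjusted p = 0.0845, limma) and that of Tex15 with a pseudocount of 1 (-0.68). Dmc1 also stood at 4.48 TPM in DIDO3ΔE16 replicate 3 beside 24.6 and 26.7 in the other DIDO3ΔE16 libraries. Brme1 was called lower in DIDO3ΔE16 than in WT (-1.34, SE 0.23), as were Mnd1 (-0.90) and Spata22 (-1.02). The Brme1 site overlaps Nanos3 on the opposite strand. Mnd1 lost the call without WT replicates 1 or 4 or DIDO3ΔE16 replicate 2 (adjusted p up to 0.0615, limma), and Spata22 without any 1 of the libraries except WT replicate 2-3 (adjusted p up to 0.099), as well as with a pseudocount of 1 (-0.59) and in 1 fit of all 9 libraries (adjusted p = 0.12).

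In the piRNA pathway 5 of 19 genes were called higher and 2 lower in DIDO3ΔE16, and 7 of 18 higher and 0 lower in DIDO3ΔCT+HADIDO3, with medians of 0.35 and 0.42, beside 10.2% and 4.94%, and 10.1% and 7.24%, of all sites. No members but Mael were among these calls. Nanos2 and Tdrd6 were at 0 in some libraries and were not tested in any comparison. Nanos2 had 1.78, 3.11 and 3.56 TPM in DIDO3ΔE16 cells, 0.218, 0 and 0.037 in WT cells, and 0.077, 0.081 and 0 in DIDO3ΔCT+HADIDO3. The means of Tdrd6 in these groups were 0.235, 0.105 and 0.046 TPM. Piwil1 and Tdrd9 were called higher in both lines, with 0.865 ± 0.172 and 0.380 ± 0.168 TPM (SD, n = 3) in WT cells, 3.16 ± 1.02 and 1.46 ± 0.357 in DIDO3ΔE16 cells, and 3.82 ± 1.299 and 1.26 ± 0.239 in DIDO3ΔCT+HADIDO3. The Piwil1 site overlaps Rimbp2 on the opposite strand. Piwil2, a PIWI protein that binds piRNA, rose from 68.7 ± 1.43 TPM in WT to 141 ± 1.48 in DIDO3ΔCT+HADIDO3 (0.94, SE 0.03, adjusted p = 0.000108, limma) and was at 85.8 ± 3.595 in DIDO3ΔE16. Tdrkh, a Tudor protein that joins piRNA trimming, rose in the same line (1.53, SE 0.07). Tdrd12 was called lower in DIDO3ΔE16 (-1.49, SE 0.11) and was at -0.54, under the fold threshold, in DIDO3ΔCT+HADIDO3. Gtsf1 was called higher in DIDO3ΔE16 than in WT (1.29) and than in DIDO3ΔCT+HADIDO3 (1.04). Fkbp6 was also called higher in DIDO3ΔE16 than in WT (1.07, SE 0.15) and than in DIDO3ΔCT+HADIDO3 (1.47). Tdrd1 was called lower in DIDO3ΔE16 than in DIDO3ΔCT+HADIDO3 (-1.28), where it was called higher than in WT (0.84). Fkbp6 lost its call against DIDO3ΔCT+HADIDO3 without any 1 DIDO3ΔE16 library or without DIDO3ΔCT+HADIDO3 replicate 3 (adjusted p up to 0.112, limma). The same call was lost with features not summed (0.152) and with TPM summed over the gene (0.2). Gtsf1 lost its call against WT without WT replicate 1 or 2-3 or DIDO3ΔE16 replicate 2 (adjusted p up to 0.0591) and its call against DIDO3ΔCT+HADIDO3 without DIDO3ΔE16 replicate 2 or DIDO3ΔCT+HADIDO3 replicate 1 or 2 (up to 0.0635), and Tdrd9 in DIDO3ΔCT+HADIDO3 lost its call without WT replicate 4 (0.0506) or DIDO3ΔCT+HADIDO3 replicate 1 (0.0538). With a pseudocount of 1 both Gtsf1 calls (0.68 and 0.58) and this Tdrd9 call (0.67) were lost, and with quantile normalization that of Gtsf1 against WT (adjusted p = 0.0659).

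Of 8 genes of primordial germ cell specification, 0 were called higher and 3 lower in DIDO3ΔE16, and 1 higher and 2 lower in DIDO3ΔCT+HADIDO3, beside 10.2% and 4.94%, and 10.1% and 7.24%, of all sites. Dnd1 had 0.006, 0.004 and 221 TPM in the WT libraries, and Kit had 224, 221 and 32.9 in DIDO3ΔCT+HADIDO3. A missing call therefore says little about Dnd1 and Kit. Tfap2c, a transcription factor of germ cell fate, fell in DIDO3ΔE16 from 103 ± 4.85 to 39.6 ± 3.07 TPM (SD, n = 3; -1.45, SE 0.07), and Prdm1, which represses the somatic programme, fell from 10.3 ± 0.746 to 4.35 ± 0.597 (-1.29, SE 0.13). In DIDO3ΔCT+HADIDO3 these were at 97.9 ± 3.65 and 8.43 ± 0.560 TPM and were not called against WT. Dppa3, which protects maternal methylation in the zygote, was called lower in both lines (-1.35, SE 0.20, and -2.19, SE 0.09). Ifitm3 was called lower (-1.41, SE 0.10) and Prdm14 higher (0.90, SE 0.05) in DIDO3ΔCT+HADIDO3. The list of meiotic entry, with 4 genes tested, held no call against WT except Dazl in DIDO3ΔCT+HADIDO3.

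Many genes of late spermatogenesis and of the oocyte were at or near 0. Of 20 spermatogenesis genes, 10 had reads in every library of either comparison with WT, and of 15 oocyte genes 6 in DIDO3ΔE16 with WT and 5 in DIDO3ΔCT+HADIDO3 with WT. The oocyte genes not tested against WT include Zp1, at 1.14 ± 0.559 TPM (SD, n = 3) in DIDO3ΔE16 cells and 0.128 ± 0.128 in WT. They also include Sohlh1, at 0.662 ± 0.0787 TPM in DIDO3ΔCT+HADIDO3 and 0.148 ± 0.129 in WT. Of the 10 spermatogenesis genes, 3 were called higher and 0 lower in DIDO3ΔE16 cells, beside 10.2% and 4.94% of all sites, and 4 higher and 1 lower in DIDO3ΔCT+HADIDO3, beside 10.1% and 7.24%. Gapdhs had 123, 257 and 6.08 TPM in the DIDO3ΔCT+HADIDO3 libraries, so its missing call says little. Among the spermatogenesis genes called higher, Slc25a31 is in both lines and Tex101 in DIDO3ΔCT+HADIDO3. Of the oocyte genes, 3 were called higher and 0 lower in DIDO3ΔE16, and 1 higher and 1 lower in DIDO3ΔCT+HADIDO3, beside the same shares of all sites. Brdt, a testis bromodomain protein, was called higher in both lines (1.16 and 1.12) but lost the call without 5 of the 6 libraries in each, with an adjusted p up to 0.0819 and 0.103 (limma), and with quantile normalization (0.0637 and 0.0632). Ccna1, a cyclin of male meiosis, was called higher in DIDO3ΔCT+HADIDO3 than in WT (1.42), with an adjusted p up to 0.128 when 1 library was left out. It also lost the call with a pseudocount of 0.01 (adjusted p = 0.0521, limma) or 1 (0.66), no filter on low values (0.0527), quantile normalization (0.068) and features not summed (0.063). Ldhc, the sperm lactate dehydrogenase, was called higher in DIDO3ΔE16 than in DIDO3ΔCT+HADIDO3 (1.81, SE 0.25). Against WT it was called lower in DIDO3ΔCT+HADIDO3 (-1.43, adjusted p = 0.0306, limma) and was not called in DIDO3ΔE16 (0.40, adjusted p = 0.469). Among oocyte genes, Sohlh2, a transcription factor of early germ cell differentiation, was called higher in both lines, from 27.8 ± 0.916 TPM (SD, n = 3) in WT to 60.5 ± 4.75 and 94.3 ± 6.06. Gdf9, a growth factor of the oocyte, had 0.231 ± 0.113 TPM in WT cells, 4.43 ± 1.25 in DIDO3ΔE16 cells and 0.223 ± 0.0188 in DIDO3ΔCT+HADIDO3 (3.74, SE 0.38, in DIDO3ΔE16 against WT). Npm2 was called higher in DIDO3ΔE16 than in WT (1.58, adjusted p up to 0.103 when 1 library was left out and 0.078 with quantile normalization), and Padi6 lower in DIDO3ΔCT+HADIDO3 (-2.94, SE 0.44). With flow cell family as a covariate, the calls in DIDO3ΔE16 against WT of Brme1, Mnd1, Spata22, Piwil1, Tdrd9, Gtsf1, Brdt and Npm2 were lost, with adjusted p of 0.0514 to 0.247, and in DIDO3ΔCT+HADIDO3 that of Brdt (0.0936).

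**Figure D5:**
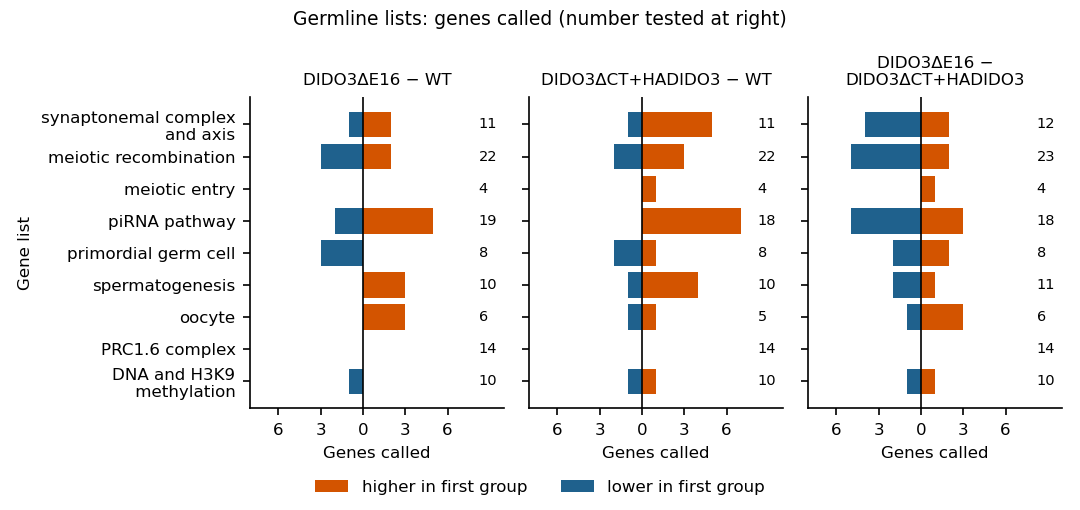
Number of genes called higher (right, orange) or lower (left, blue) in the first group of each comparison, for 9 lists of germline genes and their regulators, with the number tested at the right of each panel. No PRC1.6 gene is called, although 6, 3 and 4 of the 14 had an adjusted p under 0.05 (limma). The piRNA list has 7 calls higher and 0 lower in DIDO3ΔCT+HADIDO3 against WT.

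Genes of the repressors named above were read in the same libraries. None of the 14 PRC1.6 genes was called in any comparison by limma. Counts follow for DIDO3ΔE16 against WT, DIDO3ΔCT+HADIDO3 against WT and the direct comparison. An unadjusted p under 0.05 (limma) was reached by 7, 5 and 4 genes, of which 5, 4 and 2 were lower in the first group. An adjusted p under 0.05 (limma) was reached by 6, 3 and 4. The latter stayed under the fold threshold. Of all sites, 10.2%, 10.1% and 13.9% were called higher and 4.94%, 7.24% and 13.4% lower. These shares need the fold threshold too, so they compare with the calls and not with the counts by p alone. E2f6 was at 65.1 to 65.9 TPM in WT cells, 74.1 to 78.8 in DIDO3ΔE16 cells and 70.3 to 75.0 in DIDO3ΔCT+HADIDO3, with log2 fold changes of 0.15 (SE 0.04) and 0.04 (SE 0.05) against WT. Pcgf6, the subunit that defines the complex, was at -0.38 (SE 0.04, adjusted p = 0.0025) and -0.56 (SE 0.04, adjusted p = 0.000563), under the fold threshold. For 4 of the 14, Mga, Max, L3mbtl2 and Tfdp1, 1 or more groups held libraries over 4-fold apart, such as Max at 7.58, 135 and 138 TPM in DIDO3ΔCT+HADIDO3, so a missing call says little about them. Of the 10 genes of DNA and H3K9 methylation, Dnmt1, Dnmt3b and Dnmt3l were unsteady in the same way. Trim28, the corepressor of KRAB zinc finger proteins, was lower in DIDO3ΔE16 (-0.88, SE 0.05) and higher in DIDO3ΔCT+HADIDO3 (0.74, SE 0.06) than in WT, at 91.7 ± 2.99 and 291 ± 10.3 TPM (SD, n = 3) against 162 ± 8.16. Its site overlaps Chmp2a on the opposite strand. The de novo methyltransferase Dnmt3a was called lower in DIDO3ΔCT+HADIDO3 (-1.13, SE 0.04), at 69.0 ± 1.47 TPM against 141 ± 6.81 in WT, and had 198 ± 3.95 in DIDO3ΔE16.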

How the data were processed

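RNA-seq of mouse ESC was analysed in 9 libraries. The authors used BWA-MEM (0.7.15) for alignment to mm10, discarded duplicates and estimated the level of UCSC 3′UTRs, lengthened by 2 kb, with StringTie (1.3.3), whose command line gives no strand option. Deposited values are TPM of each feature in each library, not scaled across libraries. The deposited mean coverage (signal) gave the aligned bases, 1.46 to 2.61 Gb per library; read counts were not used, so no counting intervals are given. The authors tested with edgeR; limma on log2 TPM took its place.

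Features were named with GENCODE M21, and those with identical coordinates were summed (43031 features, 28730 sites). Sites with TPM above 0 in every library of a comparison were scaled by a trimmed mean (30% at each end), and log2(TPM + 0.1) was fitted with limma (3.58.1, R 4.3.3; moderated 2-sided tests with trend and robust estimation, Benjamini-Hochberg). Fold changes on this scale understate those of low genes. Calls needed both 0.7 on the log2 scale and an adjusted p under 0.05. The procedure was tested on simulated data with independent noise, no flow cell effect and only sites above 0 in every library. Python (3.11.15), numpy (2.4.6) and pandas (2.3.3) made the summaries. Promoters came from RefSeq (GRCm38.p6).

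All 10 members were described. Other list genes were named if called and at a group mean of 1 TPM or more, up to 4 per list and comparison. Members and lists were chosen with earlier results of these data known. Alternatives covered the pseudocount, filter, scaling, moderation, summing of features, 1 fit of all libraries, flow cell family, the replicate block and leaving out each library.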

Additional observations from a re-analysis of the deposited data

Results flagged for a closer look

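Of the 10 genes, 5 differed between the mutant lines by a test of that difference, in which DIDO3ΔE16 was set directly against DIDO3ΔCT+HADIDO3 (limma), and 13.9% of all sites were called higher and 13.4% lower in that comparison. Sycp1 was higher in DIDO3ΔE16 by 1.68 on the log2 scale, Hormad1 by 1.71 and Stra8 by 0.95. Mael differed by -0.92 and Tex101 by -0.85. Sycp1, Hormad1 and Mael kept the call when each library was left out in turn. The lines also differ in Y-linked genes, fibroblast markers and two-cell-like markers, and the part of these in the 5 differences was not tested. With 3 libraries per group, no group was large enough to be searched for outlying libraries.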

How the results depend on the processing

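Of the results on single genes, 1475 values under the alternatives kept their direction and side of the threshold, 179 lost the call, 13 gained it and 18 changed sign. In DIDO3ΔE16 against WT, where 1 member was called, the count was 0 with a pseudocount of 1 or flow cell family as a covariate, 2 with a mean of at least 1 TPM, no scaling, 1 fit of all 9 libraries or TPM summed over a gene, and 0 to 2 when 1 library was left out (0 without WT replicate 4 or DIDO3ΔE16 replicate 3, 2 without DIDO3ΔE16 replicate 2). In DIDO3ΔCT+HADIDO3 against WT, 5 became 3 with a mean of at least 1 TPM and 3 to 5 without 1 library (3 without WT replicate 4). In DIDO3ΔE16 against DIDO3ΔCT+HADIDO3, 5 became 3 with a pseudocount of 1 and 3 to 5 without 1 library (3 without DIDO3ΔE16 replicate 2 or 3, or DIDO3ΔCT+HADIDO3 replicate 1 or 2). Apart from a mean of at least 1 TPM, which removes low sites, the causes were not tested. Left-out libraries moved the counts over all sites to 2725 to 2955, 3150 to 3491 and 5466 to 5552, from 3191, 3612 and 5791. Of 61 calls of other named genes, 47 held without each library.

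The replicate block gave 0 calls over all sites and members in both comparisons with WT (6198 and 6915 sites at an unadjusted p under 0.05, limma), which share only 2 numbers, and 5 members in the direct comparison. Deviations of same-numbered libraries correlated at 0.004 to 0.037, and those of differently numbered libraries at -0.046 to 0.03. All of these are small, so they do not settle whether the numbers pair the libraries. DIDO3ΔE16 replicate 1 correlated best with DIDO3ΔCT+HADIDO3 replicate 2.

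Signs turned for small values. Quantile normalization gave -0.028 for Sycp1 and -0.027 for Mael in DIDO3ΔE16 against WT. In DIDO3ΔCT+HADIDO3 against WT, Stk31 was 0.0498 without scaling, which shifts this comparison by 0.10, 0.13 with the replicate block and -0.171 to 0.0404 without 1 library, and Hormad1 was -0.683 to 0.0848 without 1 library. Between the mutant lines, Dazl was 0.0915 with features not summed and -0.1595 to 0.0121 without 1 library. The proximal Dazl end was 0.0038 with a mean of at least 1 TPM, 0.0127 with quantile normalization and -0.101 to 0.0186 without 1 library, and Taf7l was -0.183 to 0.1001 without 1 library. The distal part of Hormad1 was -0.0383 with quantile normalization and -0.343 to 0.656 without 1 library. Depth is low at Tex101 (152 to 1908 aligned bases per library), the distal part of Hormad1 (213 to 1131) and Sycp1 (549 to 3086), among others, and 3 libraries against 3 allow no exact permutation p under 0.1.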

Other observations

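Over the 9 libraries, the sites whose log2(TPM + 0.1) followed Dazl most closely, among 18518 other sites with a mean of at least 1 TPM, belonged to Tmod2 (Pearson r = 0.99), Traf3ip2 (0.99) and Ccng1 (0.985). Tmod2, an actin-capping protein, had 13.0 ± 0.623 TPM (SD, n = 3) in WT cells, 16.9 ± 0.405 in DIDO3ΔE16 cells and 17.3 ± 1.19 in DIDO3ΔCT+HADIDO3. For Mael, the closest sites belonged to Ntrk2 (0.995), Nek9 (0.995) and Slc52a3 (0.994). Slc52a3, a riboflavin transporter, had 2.11 ± 0.2503 TPM in WT cells, 2.42 ± 0.416 in DIDO3ΔE16 cells and 6.84 ± 0.0782 in DIDO3ΔCT+HADIDO3. The 9 libraries of each correlation fall into 3 groups, so these values describe a shared order of the groups and carry no test.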
